A study of Homo sapiens with 12 samples.

Results

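Nuclear genes of oxidative phosphorylation and of the mitochondrial ribosome were followed in T24 cells, an established human bladder cancer line. The members were taken by name: subunits of complex I (NDUFA, NDUFB, NDUFC, NDUFS and NDUFV with a number), complex II (SDHA to SDHD), complex III (UQCR), complex IV (COX4 to COX8) and complex V (ATP5), and the mitochondrial ribosomal proteins (MRPL and MRPS). Names of the pseudogene kind, ending in P and digits, were dropped, and a gene had to reach 1 TPM (a transcript level scaled by transcript length and to the same total in each library) in at least 2 of the 12 libraries. This gave 155 of the 60504 genes in the files, from 163 matching names. They comprised 37 genes of complex I, 4 of complex II, 9 of complex III, 11 of complex IV, 17 of complex V, 48 of the large and 29 of the small mitoribosomal subunit. The 8 names under the minimum were COX4I2, COX6A2, COX6B2, COX7A1, COX7B2 and COX8C, which include isoforms best known from muscle, lung or testis, and the copies ATP5J2LP and ATP5L2; the highest value among them was 0.685 TPM. The members nearest above the minimum were ATP5S, whose second highest library held 8.42 TPM, and UQCRHL at 9.54 TPM, so none lay close to it. The files use older symbols for complex V, and 17 members have another name in GENCODE 44 (for example ATP5A1, now ATP5F1A, and ATP5G1 to ATP5G3, now ATP5MC1 to ATP5MC3).

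Oxidative phosphorylation takes place in the inner mitochondrial membrane: complexes I and II feed electrons through complexes III and IV to oxygen, proton pumping by complexes I, III and IV builds a gradient, and complex V uses it to make ATP. Most subunits are encoded in the nucleus, but 13 core subunits are encoded in mitochondrial DNA and are made by the mitoribosome, whose proteins are all nuclear-encoded. A name does not always give the place of a protein: NDUFA4 is now assigned to complex IV, MRPS36 to the 2-oxoglutarate dehydrogenase complex, and ATP5S and ATP5SL are not core subunits of ATP synthase.

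In the knockout set, 2 libraries labelled U11 knockout were compared with 2 of untreated T24 cells. By the methods of the study, the knockout was made with Cas9 and a pair of guides and the line was grown from a single clone. In the overexpression set, 6 libraries of cells stably carrying a U11 plasmid, with the labels 79, 86 and 87 at 2 libraries each, were compared with 2 untreated libraries (T24P3 and T24-4); these lines too were grown from single clones, and what the numbers 79, 86 and 87 stand for is not given in the sources used here. U11 is the small nuclear RNA that recognises the 5′ splice site of U12-type introns, and the question was how gene expression changed with its level. The labels do not say that the libraries came from separate cultures, so a P value measures the spread between these libraries, which may be technical.

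The U11 level in TPM did not follow the knockout label. It was 31.6 and 37.4 TPM in the libraries labelled knockout and 21.4 and 23.8 TPM in their controls, so the labelled libraries were higher (exact permutation test, two-sided, p = 0.3333, the smallest that 2 against 2 can give). In the overexpression set it was 61.9 and 53.6 TPM in line 87, 3.98 and 3.72 TPM in line 86, 0.183 and 0.412 TPM in line 79, and 0.0334 and 0.623 TPM in the controls, so line 79 lay within the range of the controls (exact permutation test of the label against control, two-sided, p = 0.3929, where the smallest possible is 0.0357). All directions given here are therefore those of the libraries labelled knockout or overexpression. By quantitative PCR, the study reported U11 decreased in its knockout line and raised in its overexpression line against wild-type T24. That is another measure than TPM, and how well these libraries capture U11 was not tested. The labels name polyA RNA and the methods rRNA depletion. Of the 6 epithelial markers 5 reached 1 TPM in at least 1 library, among them EPCAM at no more than 2.32 TPM. The epithelial marker CDH1 was under 1 TPM in every library, and so were the urothelial markers KRT20, UPK1A, UPK1B, UPK2 and UPK3A. The other 3 urothelial markers were above 1 TPM in every library. PPARG held 18.9 to 54.5 TPM, FOXA1 8.41 to 50.9 TPM and GATA3 2.38 to 17.4 TPM. Of the leukocyte, endothelial and muscle lists together only CD68 and CDH5 reached 1 TPM.

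The promoter and splice-site sequences of the members are shown first, because nuclear respiratory genes are known for binding sites of NRF1, ETS-type factors such as GABPA, and YY1, and because U11 acts through U12-type introns. Of the 155 members, 131 had a promoter window in the RefSeq table (GRCh38.p14, 250 bases before to 50 after the outermost RefSeq start of the gene). The letters searched on both strands were GCATGCGC for NRF1, CCGGAAG for ETS and AAGATGGC for YY1. In these windows of the same length, the NRF1 letters were found in 19 members (14.5%) against 5.66% of the 10520 genes at 1 TPM in 2 libraries, the ETS letters in 47 (35.9%) against 19.9%, and the YY1 letters in 31 (23.7%) against 5.53%. At least 1 of the 3 was found in 74 members (56.5%), against 28.1% of those genes and 15.6% of all 27305 windows. The YY1 letters contain ATG and lay mostly after the start: 25 members had a match that reached past the start and 6 a match wholly before it, while for NRF1 these numbers were 1 and 18. A match is a description of letters and not a bound site.

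Printed below are the windows of ATP5J, SDHD and MRPL17, with 3 matches each. That of MRPS2, the member of largest difference between knockout label and control, is added. Shown are the 150 bases before the RefSeq start, 5′ to 3′ on the strand of the gene, with matched letters in capitals. They lie at chr21:25735055-25735204 on the minus strand (ATP5J, now ATP5PF, a subunit of the peripheral stalk of complex V), chr11:112086723-112086872 on the plus strand (SDHD, a membrane anchor of complex II), chr11:6683341-6683490 on the minus strand (MRPL17) and chr9:135500532-135500681 on the plus strand (MRPS2).
ATP5J: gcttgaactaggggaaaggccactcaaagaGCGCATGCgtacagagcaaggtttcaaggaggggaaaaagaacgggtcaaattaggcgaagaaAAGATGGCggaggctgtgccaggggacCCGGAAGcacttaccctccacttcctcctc
SDHD: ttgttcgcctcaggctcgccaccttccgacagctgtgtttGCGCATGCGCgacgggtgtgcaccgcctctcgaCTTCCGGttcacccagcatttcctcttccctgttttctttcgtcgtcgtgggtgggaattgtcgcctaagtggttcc
MRPL17: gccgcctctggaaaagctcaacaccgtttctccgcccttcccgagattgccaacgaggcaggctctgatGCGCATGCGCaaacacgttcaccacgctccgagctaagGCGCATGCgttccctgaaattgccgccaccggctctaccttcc
MRPS2: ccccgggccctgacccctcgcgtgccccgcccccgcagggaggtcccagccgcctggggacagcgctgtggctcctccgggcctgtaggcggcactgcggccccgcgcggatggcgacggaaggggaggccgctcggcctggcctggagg
In ATP5J the capitals mark NRF1, YY1 and ETS letters in that order, in SDHD an overlapping pair of NRF1 matches and then ETS letters on the other strand, and in MRPL17 the NRF1 letters at 2 places, the first of them an overlapping pair. No match to these letters was in the MRPS2 window. The RefSeq start is not always the start in the gene coordinates used elsewhere here. By those coordinates the printed windows of ATP5J and MRPS2 lie inside the gene, and those of SDHD and MRPL17 reach into it.

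U12-type introns were rare among the members. An intron was taken as U12-type when it began with ATATCCTT or GTATCCTT, in the GENCODE 44 introns of at least 60 bases on hg38. Of 154 members with introns 1 met this (0.649%), against 470 of 13560 genes at 1 TPM in 2 libraries (3.47%). This was MRPS25, a small-subunit protein, at chr3:15045943-15049638 on the minus strand, in 1 transcript, with no CCTTAAC branch letters before its end. With 1 mismatch allowed, 6 members (3.90%) against 7.83% had such an intron; the sites of NDUFV2, a subunit of the electron-input part of complex I, and of COX5B are shown beside it, with the first 8 bases of the intron in capitals.
MRPS25: agcacGTATCCTTagaga
NDUFV2: ccaagGTATGCTTtattt
COX5B: cgaaaGTATCCTAaacgg
The level of MRPS25 was 10.6 and 13.1 TPM in the controls of the knockout set and 8.15 and 9.78 TPM in the libraries labelled knockout. These groups did not overlap, but the difference did not pass the test (log2 fold change -0.37 ± 0.16 SE, limma, adjusted P = 0.199). In the overexpression set its log2 fold change was -0.05.

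As a whole these genes were abundant. Together the members held 9377 to 9770 TPM in the knockout set and 19104 to 20044 TPM in the overexpression set. The whole scale differed between the sets: the 10 most abundant genes of a library held 45.5% to 49.6% of all TPM in the knockout set and 7.06% to 7.56% in the overexpression set, and histone gene names summed to 27662 to 34279 TPM in the former and 103 to 179.8 TPM in the latter. Leaving out those genes, histones and mitochondrially encoded genes, the members held 1.93% to 2.10% of the remainder in the knockout set and 2.17% to 2.27% in the overexpression set. Between the controls of the overexpression and the knockout set, members were higher by a median ratio of 1.95 (1.16 for MRPL46 to 4.38 for SDHC), and library type, run and set cannot be told apart, so each set was compared only with its own controls. Depth estimated from the coverage column was 9.07 to 15.33 gigabases of aligned bases per library.

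Among controls, COX8A, a small subunit of complex IV, was the most abundant member in both sets, at 389 and 404 TPM in the knockout set and 722 and 736 TPM in the overexpression set. It was followed by ATP5B, the catalytic beta subunit of complex V, at 265 and 283 TPM and at 709.9 and 727 TPM. UQCRH, the hinge protein of complex III, stood next with 255 and 269.7 TPM, and 587 and 655 TPM. Lowest in both sets was its intronless copy UQCRHL (2.90 to 2.97 TPM and 5.79 to 7.82 TPM in the controls), whose reads the counting may have shared with UQCRH. Of the subunit c genes of complex V, ATP5G1 and ATP5G2 held 99.8 to 108 TPM and 80.4 to 109 TPM in the knockout-set controls and ATP5G3 30.035 to 31.1 TPM. Typical members of the mitoribosome were lower, with a median over genes of 41.2 TPM for the large and 35.4 TPM for the small subunit, against 90.0 TPM for complex IV and 79.5 TPM for complex V in the same controls. Differences between replicates of a group were small for most members (median absolute difference 0.08 to 0.12 on the log2 scale over the 6 pairs), but a few jumped: MRPL49 was 124 and 138 TPM in libraries 79-1 and 87-3 and 29.6 to 56.6 TPM in the other 6 of its set, and SDHC was 56.4 and 75.1 TPM in the same pair against 36.3 to 39.3 TPM.

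**Figure D1:**
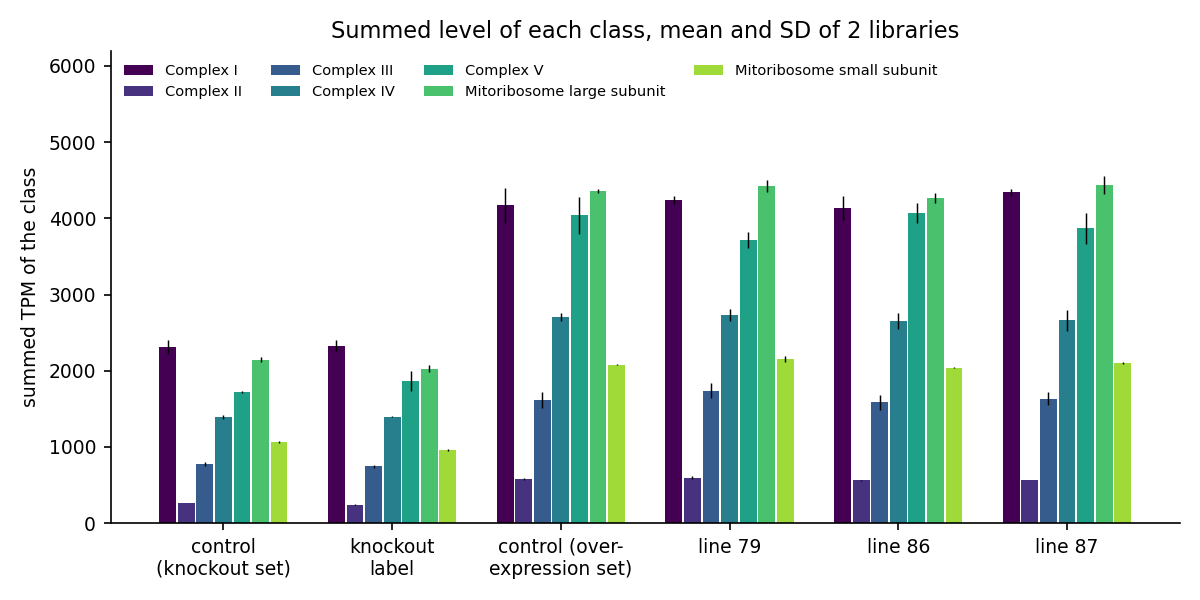
Summed TPM of the members of each class (vertical axis), as the mean of 2 libraries with the SD as error bar, for the 6 groups of libraries. In the knockout set the small mitoribosomal subunit summed to 1063 TPM in controls and 963 TPM under the knockout label and complex II to 269 and 241 TPM. In the overexpression set the line labels lay on both sides of the controls. Complex V was 3719 TPM in line 79 against 4042 TPM in controls. The small subunit was 2150 TPM in line 79 and 2043 TPM in line 86, against 2080 TPM in controls.

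Between the libraries labelled U11 knockout and their controls the respiratory chain and mitoribosome genes were shifted little as a group. A gene was called when the unadjusted limma P was under 0.05 and the fold change on log2(TPM + 1) was at least 1.5, the thresholds of the study. Of the 155 members 2 were called higher, COX7A2 and MRPS35, while 8.61% of the 14356 genes tested were called higher. Called lower were 3 members, MRPS2, MRPL49 and MRPS16, while 3.15% of all genes were. In either direction 5.19% of the 77 mitoribosome genes and 1.28% of the 78 oxidative phosphorylation genes were called, against 11.8% of all genes. With a Benjamini-Hochberg adjusted P under 0.05 and no limit on the fold, 2 members were higher (5.29% of all genes) and 4 lower (2.53% of all genes): MRPS2, MRPS16, MRPS18B and MRPL15. Without library U1, and likewise without U2, no member passed the adjusted P in limma, while without control T2 10 were lower; called lower were then 5, 3 and 7 members, and called higher 1, 4 and 4. Among the 130 members at a mean of 20 TPM or more all 5 calls remained, where 10.3% of all genes at that level were called in either direction. Overlap of the 2 and 2 libraries was absent for 45 members with higher and 54 with lower levels under the label, 63.9% of them, while it was absent for 60.2% of all genes tested.

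Relative to the rest of the transcriptome the members lay lower. Their median log2 fold change was -0.04, while the median over all genes tested was 0.11, and 74 members were above and 81 below 0. The size of the change was also smaller, with a median absolute log2 fold change of 0.18 against 0.23 over all genes. Among genes at a mean of 20 TPM or more both gaps were smaller. There the median was -0.04 for members and 0.06 for all such genes, and the median absolute value 0.18 and 0.22. With median ratio scaling, which moved the median over all genes to -0.02, the split of called members changed from 2 higher and 3 lower to 0 higher and 10 lower. The members minus all genes gave -0.15 as reported, and -0.11 to -0.17 under the other scalings. Without control T1 this difference was -0.06, and the members' own median turned to 0.0007; without library U2 that median was 0.0162. A lower relative level in bulk RNA cannot tell fewer cells expressing these genes from less of their RNA per cell. It also depends on the levels of all other genes, since TPM has the same total in each library.

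Over all 14356 genes tested the median log2 fold change was 0.11, with 9147 genes above 0 and 5209 below. Class by class, the medians were below 0 for complexes II and III and both mitoribosomal subunits. Those of complexes I, IV and V were above 0, and of these only that of complex IV was above 0.11. These are counts and medians without a test. The lowest was that of complex II, -0.14 with 3 of 4 genes below 0, and its sum was 268 and 269 TPM in controls and 237 and 244 TPM under the label. Of the 29 small-subunit genes 21 were below 0, with a median of -0.11, and their sum was 1055 and 1071 TPM in controls and 952 and 975 TPM under the knockout label. For the 48 large-subunit genes the median was -0.07 with 25 below 0, and the sum was 2119 and 2168 TPM in controls and 1999 and 2058 TPM under the label. The sums of these 3 classes did not overlap between the groups, and those of complexes III and V did not either. No such share was made for sums of other genes, and 60.2% of single genes tested did not overlap. Complex I had 21 of 37 genes above 0, a median of 0.03 and overlapping sums. Among the 9 genes of complex III, 4 were above 0 (median -0.01), with sums of 761 and 795 TPM in controls and 735 and 759.6 TPM under the label. Complex IV had 7 of 11 above 0, a median of 0.19 and sums of 1381 and 1415 TPM in controls and 1392 and 1402 TPM under the label. In complex V 10 of 17 were above 0 with a median of 0.06; its sums were 1716 and 1732 TPM in controls and 1775 and 1960 TPM under the label, the highest coming from ATP5A1 in library U1.

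**Figure D2:**
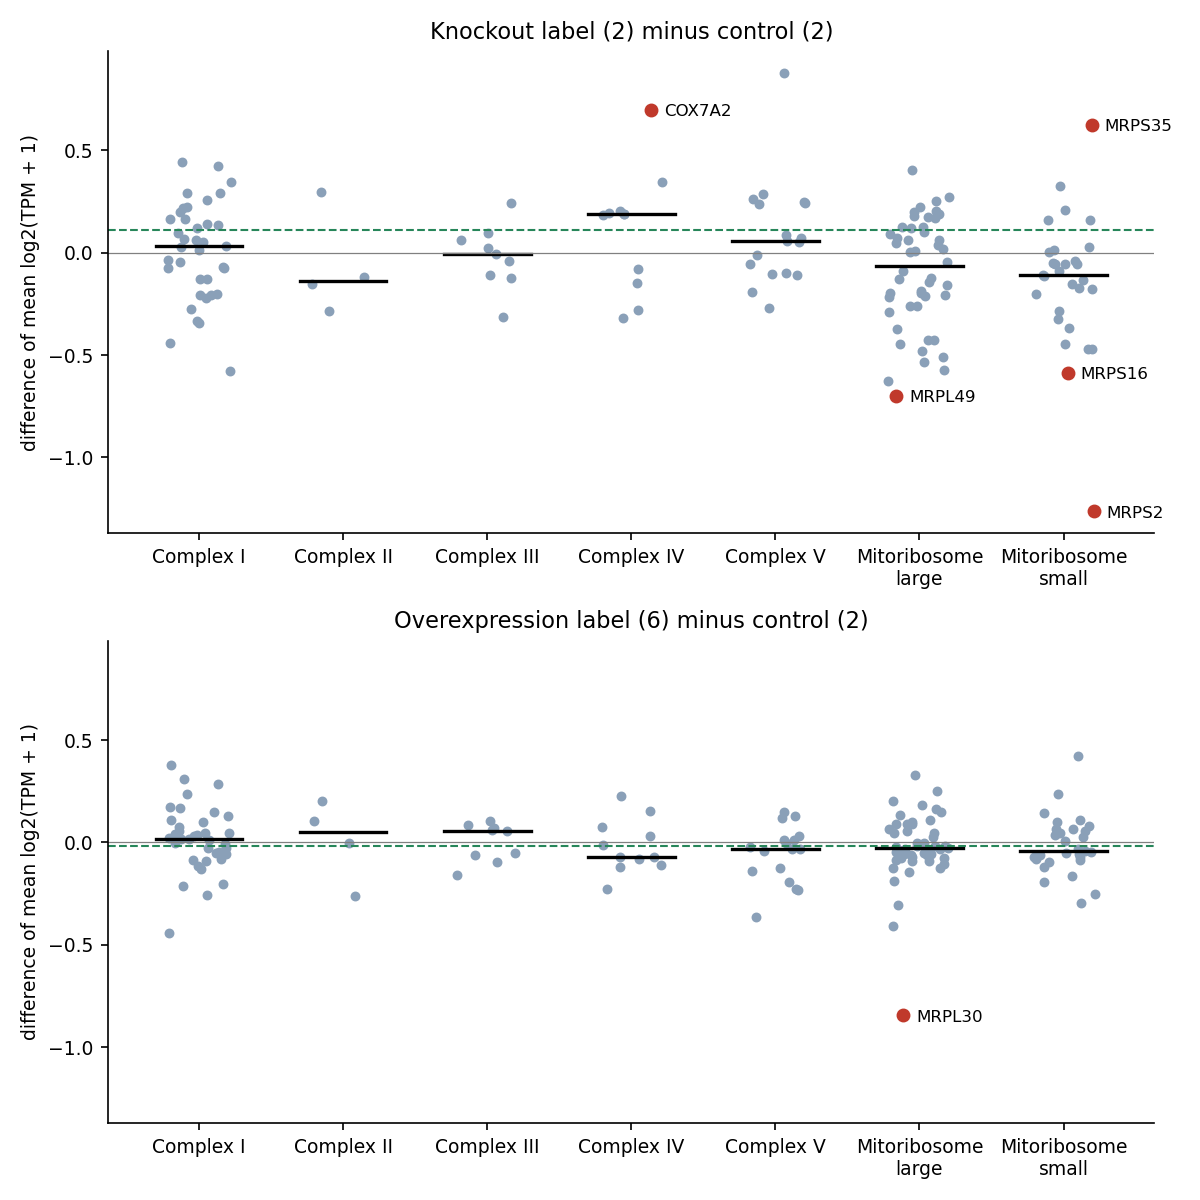
Difference of mean log2(TPM + 1) between label and control (vertical axis) for every member by class, with the class median as a black bar and the median over all genes tested as a dashed green line; called members are red. The upper panel shows the knockout set, where called members lie in complex IV and the mitoribosome and MRPS2 is lowest at -1.26, and the lower panel shows the overexpression set, where MRPL30 at -0.84 is the only call.

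The strongest difference was in MRPS2 (ENSG00000122140, chr9:135499984-135504673, plus strand), a protein of the small subunit. It stood at 57.2 and 49.2 TPM in controls and 20.9 and 22.1 TPM in the libraries labelled knockout. The labelled libraries lay far below both controls, with a log2 fold change of -1.26 ± 0.12 SE (limma, adjusted P = 0.0145), and it was called in all 13 settings tried. An antisense neighbour, C9orf116, moved the same way, with 5.62 and 5.49 TPM in controls and 2.91 and 2.32 TPM under the label; strand-specific counting is not stated in the sources used here, and the part of shared reads in this result was not tested. In the overexpression set MRPS2 varied between libraries from 54.0 to 153 TPM, with 137 and 87.6 TPM in the controls, and did not pass the test (log2 fold change -0.12 ± 0.37 SE).

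MRPS16 (chr10:73248843-73252693, minus strand), a small-subunit protein related to bacterial bS16, was 26.7 and 23.4 TPM in controls and 16.4 and 16.2 TPM under the knockout label. It fell by 0.59 ± 0.11 SE on the log2 scale (limma, adjusted P = 0.0490). DNAJC9, which overlaps it on the same strand, stood at 34.0 and 35.2 TPM in controls and 26.9 and 27.0 TPM under the label, and its part in the result was not tested. The large-subunit protein MRPL49 (chr11:65122183-65127371, plus strand) was 35.3 and 25.7 TPM in controls and 18.5 and 17.8 TPM under the label, with a log2 fold change of -0.70 ± 0.17 SE (limma, adjusted P = 0.0774); its antisense neighbour FAU held 271 and 284 TPM in controls and 197 and 199 TPM under the label. Without control T1, and likewise without library U2, neither MRPS16 nor MRPL49 was called.

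Below the 1.5-fold limit but past the adjusted threshold were MRPS18B and MRPL15. MRPS18B was 49.2 and 51.7 TPM in controls and 35.9 and 36.3 TPM under the label (log2 fold change -0.47 ± 0.09 SE, limma, adjusted P = 0.0484). Its paralogs did not pass the test: MRPS18A had a log2 fold change of 0.00 and MRPS18C of 0.32, adjusted P = 0.996 and 0.223 in limma. MRPL15, named here after its values were seen, was 93.4 and 92.0 TPM in controls and 62.8 and 61.2 TPM under the label (log2 fold change -0.57 ± 0.08 SE, limma, adjusted P = 0.0294).

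On the higher side, COX7A2 (chr6:75237675-75250323, minus strand), the widely expressed form of a small complex IV subunit, was 63.0 and 62.3 TPM in controls and 104 and 101 TPM under the label. Both labelled libraries lay above both controls, with a log2 fold change of 0.70 ± 0.08 SE (limma, adjusted P = 0.0214); it was called in 12 of 13 settings and lost with median ratio scaling. Its relative COX7A2L, a supercomplex assembly protein, went from 21.7 and 51.8 TPM in the controls to 29.9 and 49.1 TPM, with controls that differed more than the groups. MRPS35 (chr12:27710773-27756295, plus strand) was 35.1 and 37.4 TPM in controls and 58.2 and 54.8 TPM under the label (log2 fold change 0.62 ± 0.10 SE, limma, adjusted P = 0.0326); it was called in 7 of 13 settings, its fold passing under 1.5 with FPKM, with the 3 other scalings, without control T1 and without library U1.

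**Figure D3:**
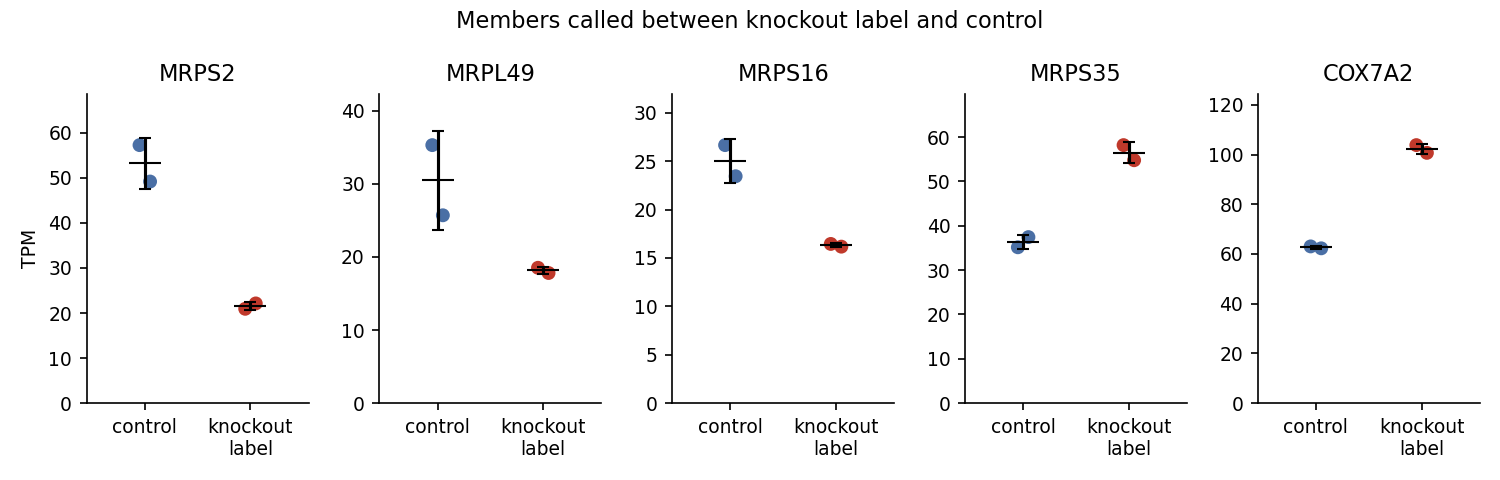
TPM (vertical axis, from 0) of the 5 members called in the knockout set, with points for single libraries and a bar for the mean and SD of 2 libraries in each group. MRPS2, MRPL49 and MRPS16 are lower and MRPS35 and COX7A2 higher in both libraries under the knockout label than in both controls.

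The respiratory complexes otherwise held no call in the knockout set. In complex I the extremes were NDUFA12 (29.5 and 22.4 TPM in controls, 35.2 and 35.4 TPM under the label, log2 fold change 0.44) and NDUFB5 (53.7 and 30.3 TPM, then 26.0 and 27.4 TPM, log2 fold change -0.58), with adjusted P = 0.140 and 0.234 in limma. All 4 subunits of complex II missed the adjusted threshold. The flavoprotein SDHA was 86.1 and 90.3 TPM in controls and 81.8 and 76.5 TPM under the label, and the iron-sulfur subunit SDHB 96.2 and 99.2 TPM and then 91.3 and 88.6 TPM. Of the membrane anchors, SDHC was 8.76 and 9.04 TPM in controls and 11.7 and 10.6 TPM under the label, and SDHD 78.1 and 69.8 TPM and then 59.1 and 61.8 TPM. In each of the 4 the groups did not overlap, SDHC being higher and SDHA, SDHB and SDHD lower, and the largest size of log2 fold change was 0.29; over all genes tested the groups did not overlap in 60.2%.

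In complex III the core protein UQCRC2 had the lowest value, with 73.1 and 76.0 TPM in controls and 61.0 and 58.6 TPM under the label (log2 fold change -0.31, limma, adjusted P = 0.0935), and UQCR10 the highest (log2 fold change 0.24). Complex IV subunits outside the COX7 genes moved both ways without passing the adjusted threshold. COX4I1, the common form of subunit 4, was 165 and 182 TPM in controls and 127 and 152 TPM under the label, and COX8A 404 and 389 TPM and then 323 and 329.9 TPM, while COX6A1 had 182 and 173 TPM and then 206 and 199 TPM. COX7B had a log2 fold change of 0.34 and COX6B1 of 0.20. Of complex V, ATP5A1, the alpha subunit, had the largest value of all members (log2 fold change 0.88 ± 0.41 SE) but it rested on library U1: 226 TPM against 95.4 TPM in U2 and 83.7 and 75.4 TPM in the controls (limma, adjusted P = 0.224). ATP5F1 was at the lower end, with a log2 fold change of -0.27 (limma, adjusted P = 0.461).

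Other genes of the pathway gave little more in the knockout set. Over all genes tested 11.8% were called, 8.61% higher and 3.15% lower. None of 44 assembly factors tested was called, the median of their log2 fold changes being 0.00, and none of 14 regulators. TFAM, the main mitochondrial transcription factor, was 33.5 and 41.6 TPM in controls and 26.6 and 24.7 TPM under the label (log2 fold change -0.53, limma, adjusted P = 0.0863). NRF1, GABPA and YY1 had log2 fold changes of 0.11, 0.16 and 0.03. Of 17 mitoribosome assembly and translation factors 1 was called higher, the release factor MTRF1L (12.9 and 14.9 TPM, then 22.4 and 21.3 TPM), and 1 lower, the elongation factor TSFM (16.2 and 25.9 TPM, then 12.3 and 9.36 TPM). Together they were 11.8% of the 17, the share over all genes. The 6 mitoribosome proteins outside the MRP names held no call, nor did the 3 electron carriers and partners, among which the complex III subunit CYC1 was 108 and 95.9 TPM in controls and 77.4 and 73.1 TPM under the label (log2 fold change -0.43, limma, adjusted P = 0.0696). The 13 mitochondrially encoded protein genes were all above 0, with a median of 0.54; 1 was called and none passed the adjusted threshold.

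Some cell-state markers differed with the knockout label and others did not, and their part in these differences was not tested. The mesenchymal marker VIM was 1304 and 1259 TPM in controls and 2254 and 2096 TPM under the label, the epithelial keratin KRT19 158 and 151 TPM and then 92.8 and 90.3 TPM, and the luminal factor FOXA1 18.3 and 18.3 TPM and then 8.41 and 10.5 TPM. GATA3, another luminal factor, went the other way, from 2.38 and 2.93 TPM to 5.61 and 4.67 TPM (log2 fold change 0.75, called, limma, adjusted P = 0.0553). The keratins KRT7 and KRT8 and the mesenchymal cadherin CDH2 were not called, with log2 fold changes of -0.01, 0.06 and -0.01. KRT18 was not called either, but was lower, with 400 and 373 TPM in controls and 292 and 270 TPM under the label. EPCAM was 0.821 and 1.23 TPM in controls and 0.148 and 0.09 TPM under the label, too low to be tested. CDH5, the only endothelial marker at 1 TPM, was 4.85 and 4.75 TPM in controls and 0.0320 and 0.0290 TPM under the label. Of the lists, 1 of 4 tested epithelial, 1 of 3 urothelial and 1 of 1 endothelial markers were called lower, and 1 of 3 urothelial and 1 of 2 mesenchymal markers higher. Over all genes tested 3.15% were called lower and 8.61% higher. By the adjusted P under 0.05 (limma), 2 of the 4 tested epithelial markers were lower and 0 higher, where 2.53% of all genes were lower. The summed level of all endothelial markers ran from 0.103 to 34.2 TPM over the 12 libraries, with PECAM1 and VWF under 1 TPM throughout; the summed leukocyte and muscle markers reached at most 7.72 and 0.700 TPM, with PTPRC, CD3E, DES, MYH11 and ACTA1 under 1 TPM in every library.

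In the overexpression set, across all 6 labelled libraries against 2 controls, the members stayed at the control level within the spread of the libraries. No member was called higher, where 0.767% of the 15768 genes tested were, and 1 was called lower, MRPL30, where 1.16% of all genes were. With the adjusted P no member passed in either direction (limma), where 0.0507% of all genes were higher and 0.12% lower, and 8 members had an unadjusted P under 0.05, where 6.0% of all genes had. Of the 151 members at a mean of 20 TPM or more 1 was called, where 0.947% of all genes at that level were. The median log2 fold change was -0.02 for members and -0.02 for all genes, with 68 members above and 87 below 0, and the median absolute value was 0.08 against 0.12. In 6 members all labelled libraries lay above both controls and in 8 below, 9.03% of them in all, while 9.87% of all genes did not overlap. Within the libraries of the first identifier prefix (86-1, 87-1, 79-1 and T24P3) the median over members was 0.01, and within the second (T24-4, 79-3, 86-3 and 87-3) -0.02.

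The class medians in this set ran from -0.07 in complex IV to 0.06 in complex III. The 2 mitoribosomal subunits were near 0 (-0.03 and -0.04), and so was complex I at 0.02. The small-subunit sum was 2075 and 2086 TPM in controls and 2036 to 2176 TPM in the labelled libraries, and the sums of the other 6 classes overlapped the controls too. At the ends of the range outside the mitoribosome were NDUFB5 (41.3 and 60.025 TPM in controls, a lowest of 43.0 and a highest of 94.3 TPM in the labelled libraries, log2 fold change 0.38) and NDUFS6, a subunit of the electron-input part of complex I (149.7 and 161 TPM in controls, 93.2 to 128 TPM in the labelled libraries, log2 fold change -0.44 ± 0.12 SE, limma, adjusted P = 0.470). For NDUFS6 all 6 labelled libraries lay below both controls. MRPS35, called higher under the knockout label, had the largest log2 fold change of the small subunit here (0.42) and was not called. It was 59.1 and 60.9 TPM in controls and 62.4 to 88.7 TPM in the labelled libraries, all above both controls. The level of MRPS35 was thus higher under both labels, and the cause was not tested. The 44 assembly factors, 15 regulators, 17 translation factors, 6 further mitoribosome proteins, 4 carriers and 13 mitochondrially encoded genes held no call in this set. Over all genes tested 0.767% were called higher and 1.16% lower.

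MRPL30 (chr2:99181079-99197626, plus strand), a large-subunit protein related to bacterial uL30, was 42.9 and 41.3 TPM in the controls. It was 18.1 and 16.0 TPM in line 79, 17.2 and 24.7 TPM in line 86, and 24.1 and 49.1 TPM in line 87. All labelled libraries except 87-3 were below the controls, and 87-3 was above both. The log2 fold change over the 6 libraries was -0.84 ± 0.36 SE (limma, adjusted P = 0.829), and it was called in 9 of 19 settings. Of the libraries left out in turn, it kept the call without 87-3 and lost it without any of the others. Leaving out control T24-4 gave 4 other members called lower, COX7A2L, MRPL10, MRPL42 and MRPS27, named here after their values were seen. The entries RP11-111H13.1 and RP11-38C17.1 overlap it on the same strand and held 0.0466 to 1.54 TPM in the libraries of this set.

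Taken line by line, the overexpression set held a few members that set 1 line apart. Compared with the controls, 1 member was called higher in line 79 (NDUFB5, where 2.43% of all genes were) and 1 lower (MRPL30, where 5.52% were). In line 86 NDUFB1 was called higher (1.59% of all genes) and MRPL30 lower (2.01%). In line 87, the line with the highest U11 level, none was called higher (2.08%) and ATP5F1, the b subunit of the complex V stalk, lower (3.05%). ATP5F1 was 188 and 118 TPM in line 87, against 275 and 282 TPM in the controls (log2 fold change -0.90 ± 0.25 SE, limma, adjusted P = 0.127). The lines share the same 2 controls. Across members the median was 0.01 in line 79, -0.03 in line 86 and 0.01 in line 87.

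A test of any difference between the 3 line labels passed an adjusted P of 0.05 in 11 of 155 members (7.10%), where 16.0% of all genes passed. The 11 were spread over the classes: NDUFA8, NDUFB1 and NDUFS3 of complex I, SDHA of complex II, ATP5C1 and ATP5J2 of complex V, MRPL41, MRPL50 and MRPL57 of the large and MRPS16 and MRPS31 of the small subunit. None was of complex III or IV. Without library 79-1, and likewise without 79-3, 6 members passed.

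Line 86 stood apart in the 3 members of smallest P. MRPL41 (chr9:137551199-137552555, plus strand), a large-subunit protein, was 61.9 and 62.5 TPM in line 86, against 107 and 101 TPM in line 79, 105 and 101 TPM in line 87, and 92.5 and 92.9 TPM in the controls (limma F test between lines, adjusted P = 0.00162). NDUFA8 (chr9:122144058-122159819, minus strand), a complex I subunit of the intermembrane space, was also low in line 86, at 84.8 and 85.6 TPM, against 144 and 133 TPM in line 79, 124 and 128 TPM in line 87, and 107 and 114 TPM in the controls (adjusted P = 0.00332). In the opposite direction, NDUFB1 (chr14:92116122-92121917, minus strand), a small membrane subunit of complex I, was 169 and 206 TPM in line 86, against 96.5 and 108 TPM in line 79, 113 and 127 TPM in line 87, and 114 and 110.0 TPM in the controls (adjusted P = 0.00939). MRPL41, NDUFA8 and NDUFB1 kept an adjusted P under 0.05 in all 17 settings tried.

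Line 79 was the low line for others. NDUFS3, a core subunit of the complex I arm, was 61.8 and 63.4 TPM in line 79 and 73.7 to 96.2 TPM in the other 6 libraries of the set (adjusted P = 0.0101). ATP5J2, a small membrane subunit of complex V, was 296 and 268 TPM in line 79 and 363 to 405 TPM elsewhere (adjusted P = 0.0145), and ATP5C1, the gamma subunit, 214 and 231 TPM against 293 to 339 TPM (adjusted P = 0.0173). MRPS16 was 40.5 and 42.9 TPM in line 79 and 52.4 to 55.8 TPM elsewhere (adjusted P = 0.0145). Its overlapping neighbour DNAJC9 was 62.2 and 62.7 TPM in line 79 and 85.2 to 92.2 TPM elsewhere, a part that was not tested. On the same strand PTPMT1 overlaps NDUFS3 and PTCD1 overlaps ATP5J2. Both entries reached 1 TPM, and their part was not tested either. SDHA was highest in line 79, at 196 and 193 TPM, and lowest in line 87, at 163 and 162 TPM (adjusted P = 0.0477). Its level in the controls was 168 ± 7.35 TPM (mean and SD), and it passed in 7 of 17 settings.

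Line 87 was low for MRPL57, at 27.3 and 25.7 TPM, against 36.8 and 39.6 TPM in line 79, 36.5 and 38.4 TPM in line 86, and 33.0 and 35.8 TPM in the controls (adjusted P = 0.0130). MRPS31 was 28.8 and 32.9 TPM in line 86 and 28.4 and 28.05 TPM in the controls, against 20.2 to 23.5 TPM in lines 79 and 87. Pseudogene entries of MRPS31 reached 86.7% of the level of the gene and those of SDHA 24.2%, so the split of reads between them is uncertain. MRPL50 was lowest in line 86 (13.8 and 15.9 TPM, against 20.3 to 23.5 TPM in the other lines and 19.6 and 20.6 TPM in the controls). The adjusted P values of MRPS31 and MRPL50 in limma were 0.0337 and 0.0294, and each passed in 9 of 17 settings. CDH5 was 34.1 and 32.2 TPM in line 79 and 3.08 to 5.28 TPM in the other 6 libraries of the set; its part in the differences of line 79 was not tested.

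**Figure D4:**
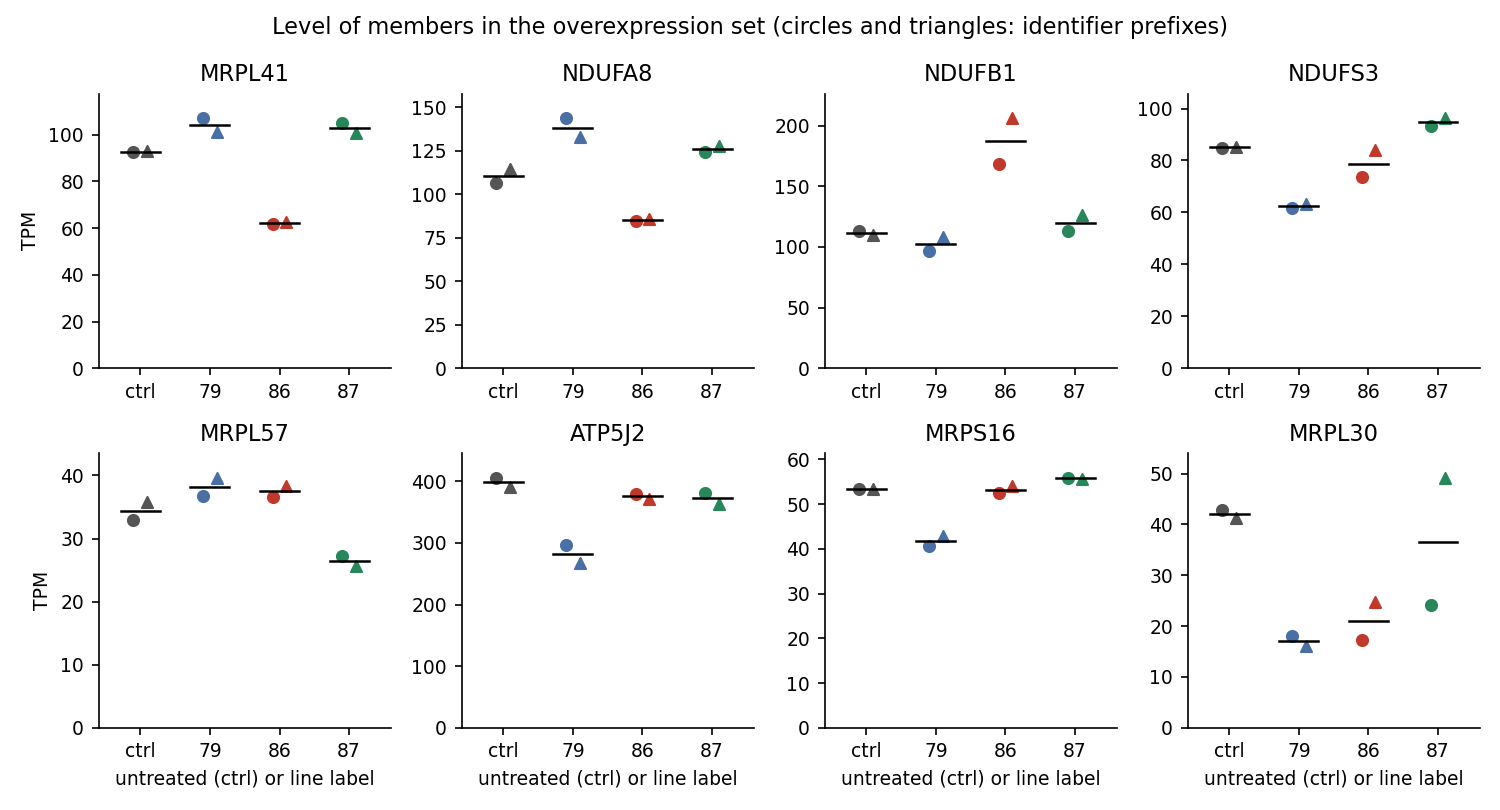
TPM (vertical axis, from 0) in the overexpression set of 7 members that differed between line labels and of MRPL30, by untreated control and line label, with circles and triangles for the libraries of the first and second identifier prefix and a bar for the mean of 2. Line 86 is low for MRPL41 and NDUFA8 and high for NDUFB1, line 79 is low for NDUFS3, ATP5J2 and MRPS16, line 87 is low for MRPL57, and the libraries of line 87 disagree for MRPL30.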

How the data were processed

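RNA of 12 libraries of T24 cells was analysed from the tables the authors deposited. By the methods of the study, reads were trimmed with fastp, mapped to hg38 by Hisat2, and quantified library by library with Stringtie. Per gene, the authors deposited the coverage (a signal, mean aligned bases per position), the FPKM and the TPM. They called genes with DESeq2, which needs read counts and was not run here. The labels name polyA RNA and the methods rRNA depletion. TPM was tested on log2(TPM + 1) in limma (version 3.58.1, under R 4.3.3; linear fits moderated by empirical Bayes, prior variance trended on the mean) over all genes at 1 TPM in at least 2 of the libraries compared, with Benjamini-Hochberg adjustment over them. The fold change understates the change of low genes. Precision comes from the spread between libraries, since TPM does not give the read counts from which counting error could be modelled. Members, gene lists and tests were chosen with earlier results of these data known. Named were, per comparison and class, the members of largest and smallest log2 fold change (mean of at least 5 TPM in 1 group), called members, the 6 of smallest P between line labels, SDHA to SDHD, members with a U12-type intron and paralog sets; a few others are named for their level or after their values were seen. Of the 155 members, all lay on the same chromosome and strand as in GENCODE 44, and coordinates of genes are those of the files (hg38). The entries overlapping members at 1 TPM were on the same strand for 28 and antisense for 58 members. The fits were tested on simulated data with known changes. Python 3.11.15, pandas 2.3.3, numpy 2.4.6 and matplotlib 3.10.9 were used. Alternatives in scaling, unit, pseudocount, filter, variance trend, replicate block and left-out libraries were run. Some items of the gene lists are not reported here.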

Additional observations from a re-analysis of the deposited data

Results flagged for a closer look

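Several named members differed between the overexpression lines 79, 86 and 87 in a test of that difference itself (limma F test, Benjamini-Hochberg adjusted over all genes tested). The adjusted P was 0.00162 for MRPL41 and 0.00332 for NDUFA8, both lowest in line 86, and 0.00939 for NDUFB1, highest in line 86. It was 0.0101 for NDUFS3, 0.0145 for ATP5J2 and 0.0145 for MRPS16, all lowest in line 79, 0.0130 for MRPL57, lowest in line 87, and 0.0477 for SDHA, highest in line 79. SDHA passed in 7 of 17 settings. These genes were singled out by this test, and each line is 2 libraries from what the methods describe as single-clone lines, so clone and U11 level cannot be told apart. Each line label holds 2 libraries, so single libraries were screened for outlying values only among the 6 labelled libraries of the overexpression comparison as 1 group, which come from 3 lines. Of 42 named members 6 had a library whose gap to the nearest other, as a share of the whole range, passed Dixon's critical value, which chance passes in about 1 in 20 groups. The share was 0.889 for COX7A2L and 0.718 for NDUFA12, both high in library 86-1. It was 0.742 for COX4I1, high in 79-1, and 0.737 for MRPL30, high in 87-3. In 79-3 it was 0.710 for COX7B, which was high, and 0.658 for MRPS35, which was low.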

How the results depend on the processing

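In the knockout comparison the called members, 2 higher and 3 lower, became 1 and 6 with FPKM, 0 and 10 with median ratio scaling, 1 and 6 with quantile normalization, and 1 and 5 when libraries were rescaled without the most abundant, histone and mitochondrially encoded genes. Leaving out 1 library gave 1 to 4 higher and 3 to 7 lower. Members past the adjusted P, 2 higher and 4 lower, were 0 higher with median ratio scaling and 0 and 0 with no filter on low values. The lower count was 9 with FPKM, 8 with quantile normalization, 8 with rescaling, 2 without the variance trend and 2 with a pseudocount of 0.1, and without 1 library 0 to 3 were higher and 0 to 10 lower. The median log2 fold change of members, -0.0392, was -0.137 with FPKM, -0.185 with median ratio scaling, -0.120 with quantile normalization and -0.104 with rescaling.

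In the overexpression comparison the 1 call, MRPL30, was 0 with no filter and 0 without the variance trend, and 0 to 4 members were called lower without 1 library. For line 79, 0 members were called higher with no filter and 0 without the variance trend; without 1 library 0 to 1 were higher and 1 to 4 lower. Its median of 0.00893 was 0.0565 with quantile normalization and -0.026 to 0.0606 without 1 library. Without 1 library, 1 to 3 members were called higher and 1 to 2 lower in line 86, and 0 to 5 higher and 1 to 4 lower in line 87. The members that differed between lines, 11, were 6 to 10 without 1 library. The cause of these moves was not tested, and neither was the part of the smaller number of libraries. No called member changed direction, but 26 of 84 fold changes of named members, none of them called, changed sign in at least 1 setting. Medians over members, all near 0, changed sign too: to 0.0162 and 0.0007 in the knockout comparison (without U2 and without T1), to 0.001 with median ratio scaling and up to 0.0243 without T24-4 in the overexpression comparison, and to -0.026, 0.0108 and -0.0126 for lines 79, 86 and 87 without 1 library. The members minus all genes stayed below 0 in the knockout comparison in all settings and changed sign in 6 settings of the overexpression comparison.

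With the replicate block, the adjusted count in the knockout comparison was 0 higher and 1 lower, the overexpression call 0, line 79 0 higher, line 86 2 lower, and the members that differed between lines 20. The numbers of the knockout set are not shown to pair the libraries: deviations of same-numbered libraries correlated at 0.024 over genes. In the overexpression set the identifier prefixes gave correlations of 0.070 to 0.150 over the 6 pairs of groups, not all over 0.1.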
